A study of Homo sapiens with 6 samples.

Results

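NF-kappaB factors, the proteins that restrain them, and the cytokines, chemokines and receptors tied to them were followed as a set of 42 genes, named by symbol and found as 42 of the 61533 gene rows. The cells were MDA-MB-231, a long-used human cell line from triple-negative breast cancer, sequenced as 3 libraries that carried shKDM2B, a short hairpin RNA against KDM2B, and 3 that carried an empty vector and are labelled WT. Both groups were otherwise the same line in the same medium, with serum. KDM2B is a histone demethylase and a CpG-binding subunit of a noncanonical Polycomb complex, and the series title places it beside MYC and ATF4 in the control of amino acid metabolism. The labels name 1 hairpin group and do not say whether the cells were a clone or a pool, so the hairpin and the loss of KDM2B cannot be told apart.

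NF-kappaB is a family of dimers built from RELA, RELB, REL and the products of NFKB1 and NFKB2. IkappaB proteins hold these dimers inactive until a kinase complex marks the inhibitors for destruction. The canonical arm, driven by TNF, interleukin-1 and Toll-like receptors, releases RELA and NFKB1 products, while the noncanonical arm stabilises the kinase NIK, which drives processing of NFKB2 and frees its dimers with RELB. Many inflammatory cytokines and chemokines are targets of the pathway, and basal-like breast cancer lines are known to secrete several of them.

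Of the 42 genes, 36 had enough reads to be tested. CXCL5, CXCL6, CCL2, CCL5, TNF and CSF2 did not, and none of these had more than 14 counts in any library. Among the 36, 17 were higher and 12 lower in shKDM2B cells, and 7 did not pass the test. Across all 14071 genes tested, 30.5% were called higher and 30.4% lower, so a call alone does not set a member apart from the transcriptome. At a change of at least 2-fold, 5 members were higher (CSF1, IL6R, IL7R, IL6ST and IRAK2) and 2 lower (IL6 and NFKBIB), against 7.14% and 4.85% of all tested genes. The groups did not overlap for 28 of the 36 members and for 65.5% of all tested genes. The median log2 fold change was 0.24 over the tested members and -0.0067 over all tested genes. Levels are in CPM, read counts scaled to library size, with library sizes adjusted by the trimmed mean of M values (TMM). A call is an adjusted p under 0.05 in edgeR's quasi-likelihood test with Benjamini-Hochberg adjustment over all genes tested.

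Library totals ran from 10190149 to 15737951 counts. KDM2B had 153, 166 and 224 counts in shKDM2B libraries and 589, 714 and 902 in empty vector libraries, and 23.1% of its level was left. Mitochondrially encoded genes took 0.196 to 0.476% of counts in shKDM2B libraries and 0.0767 to 0.151% in empty vector libraries. MALAT1, a nuclear RNA, took 0.246 to 0.311% in shKDM2B libraries and 0.0958 to 0.107% in empty vector libraries. The part of these shifts in the results below was not tested. CD44, AXL, EGFR and MSN, listed as markers of the line, had at least 9934 counts in every library. The hormone receptor genes ESR1 and PGR had at most 4, while the keratin gene KRT8 had 4406 to 6995 in shKDM2B and 3065 to 3884 in empty vector libraries. Of the 7 markers listed for the line, 3 were higher (CD44, AXL and EGFR) and 2 lower in shKDM2B cells. The lower ones were the mesenchymal marker VIM, at a log2 fold change of -1.68, and CAV1, at -0.35. Of 7 hormone receptor and luminal markers, 4 were tested, of which KRT8 (0.49) and FOXA1 (0.46) were higher and ERBB2 and GATA3 did not pass. CDH1, an epithelial cadherin, had 4, 4 and 2 counts in shKDM2B libraries and 0 in all empty vector libraries. Leukocytes are the usual source of many of these cytokines. Of 18 leukocyte markers, 7 were at 0 in all libraries, among them CD3E, MS4A1 and LYZ, PTPRC had at most 4 counts, and only CD8A and CSF1R were tested. The 18 summed to 7.58 to 10.2 CPM in shKDM2B and 7.39 to 9.20 CPM in empty vector libraries. The 9 fibroblast markers summed to 15.5 to 16.6 CPM in shKDM2B and 5.79 to 7.97 CPM in empty vector libraries, nearly all from FBLN1 and PDGFRB, while COL1A2, DCN and LUM had at most 4 counts. The 8 endothelial markers summed to 176.5 to 187.7 CPM in shKDM2B and 58.0 to 65.3 CPM in empty vector libraries, nearly all from ESAM and KDR, while PECAM1, VWF and CDH5 had at most 8 counts. The part of these marker genes in the results was not tested. In bulk RNA, fewer cells expressing a gene and less RNA per cell cannot be told apart.

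**Figure D1:**
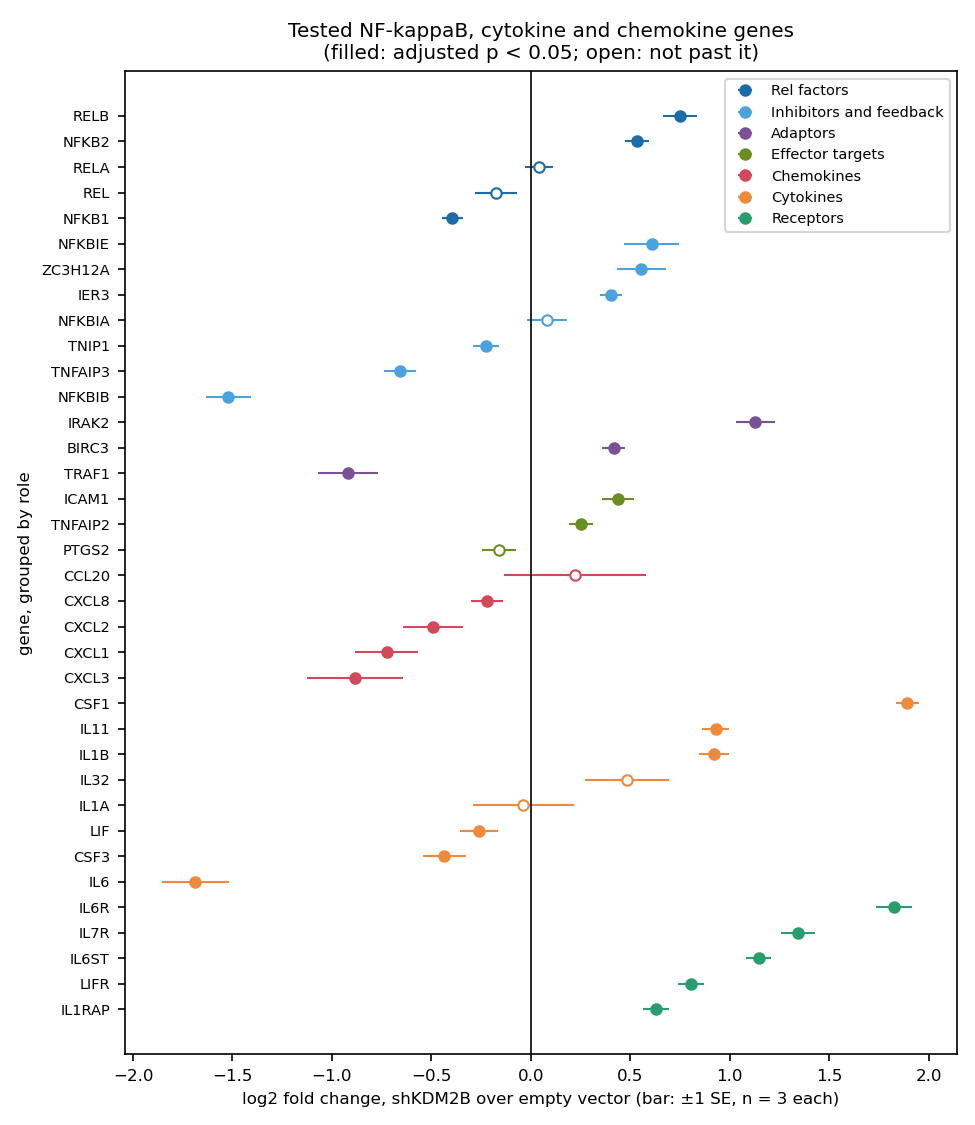
Log2 fold change of the 36 tested members (x axis, shKDM2B over empty vector) by gene and role (y axis). Points are estimates from 3 libraries a group, bars are 1 SE, and filled points passed an adjusted p of 0.05. All 5 receptors lie right of 0, from 0.63 to 1.82, and the called chemokines lie left of it.

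The recognition site of NF-kappaB in member promoters is shown first, because many members are known as targets of the pathway, although most members with a window, all 5 receptors and all 3 effector targets among them, lack the strict word searched here. Promoter windows of 300 bases (250 before the start and 50 after it, RefSeq, GRCh38.p14) were at hand for 34 members. They were searched on both strands for a strict kappaB word, read as 3 G, any 2 bases, 3 T and 2 C. The word occurred in 13 of the 34 windows (38.2%), against 523 of 27305 windows over all genes (1.92%). The broader kappaB consensus, which was also matched at every strict word in the member windows, occurred in 14 of 34 and in 10.8% of all windows. IL6ST holds a consensus match without the strict word, and BIRC3 holds a second consensus match apart from its strict word. TNFAIP3 holds 2 strict words, which begin 67 and 55 bases before the start, and the first of them is printed. Sites of members called lower, of NFKBIA and of BIRC3, the holder of the word that was called higher, are printed on the strand of the gene, with the word in capitals. The first 3 come from neighbouring chemokine genes, and they are followed by IL6, by the factor NFKB1, the inhibitors NFKBIA and TNFAIP3 and the adaptor gene BIRC3. In NFKBIA, TNFAIP3 and BIRC3 the word reads on the opposite strand.
CXCL1 (chr4:73869304-73869333, plus strand): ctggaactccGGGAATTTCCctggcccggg
CXCL2 (chr4:74099254-74099283, minus strand): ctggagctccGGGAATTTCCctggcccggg
CXCL3 (chr4:74038749-74038778, minus strand): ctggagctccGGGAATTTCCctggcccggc
IL6 (chr7:22727117-22727146, plus strand): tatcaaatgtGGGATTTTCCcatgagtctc
NFKB1 (chr4:102501300-102501329, plus strand): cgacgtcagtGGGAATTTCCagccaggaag
NFKBIA (chr14:35404811-35404840, minus strand): tgactggcttGGAAATTCCCcgagcctgac
TNFAIP3 (chr6:137867182-137867211, plus strand): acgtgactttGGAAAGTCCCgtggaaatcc
BIRC3 (chr11:102317275-102317304, plus strand): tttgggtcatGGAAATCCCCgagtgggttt

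These words begin 49 (NFKB1) to 81 (NFKBIA) bases before the annotated start, except that of BIRC3, which begins 199 bases before it. The chemokine windows are close to identical around the word, and those of CXCL5 and CXCL6 hold the same 10 letters. Among members that hold the word, 11 were tested, of which 6 were lower (NFKB1, TNFAIP3, CXCL1, CXCL2, CXCL3 and IL6), 1 was higher (BIRC3) and 4 did not pass (REL, NFKBIA, CCL20 and IL32). Among those without it, 19 were tested, of which 12 were higher, 4 lower and 3 not past the threshold. The median log2 fold change was -0.39 with the word and 0.53 without it. In the whole tested transcriptome the share called lower was 30.4%, and the share called higher was 30.5%. CXCL1, CXCL2 and CXCL3 have coding sequences 90.7 to 94.4% identical, so reads may be split among them. Their 3 decreases may therefore not be separate observations. No test of the split by word was made, and that split was looked at with the results known. A missing match says only that these letters are not in the window.

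The 5 Rel factors did not move as a block. The noncanonical partners NFKB2 and RELB rose, NFKB1 fell, and RELA and REL did not pass the test. NFKB2, the precursor of p52, had 78.8, 84.9 and 87.4 CPM in shKDM2B libraries, against 57.3, 60.5 and 56.0 CPM in empty vector libraries. Its groups lay apart (log2 fold change 0.53, SE 0.06, adjusted p 2.58e-06). RELB, which pairs with p52, had 31.2, 28.7 and 29.4 CPM in shKDM2B libraries, against 16.6, 19.0 and 17.5 CPM in empty vector libraries, a 1.68-fold rise with every shKDM2B library above every empty vector one (adjusted p 3.63e-06). NFKB1, the precursor of p50, fell to 80.8, 84.5 and 84.9 CPM in shKDM2B libraries, against 111.0, 114.1 and 104.3 CPM in empty vector libraries (log2 fold change -0.39, SE 0.05, adjusted p 2.14e-05). RELA, the main transactivating subunit of the canonical arm, averaged 112.4 ± 4.47 CPM in shKDM2B and 109.2 ± 11.9 CPM in empty vector cells (SD, n = 3 each), and its groups overlapped (log2 fold change 0.04, SE 0.07, with a sign that turned without empty vector replicate 2). REL averaged 14.9 ± 1.64 CPM in shKDM2B and 17.0 ± 1.34 CPM in empty vector cells (SD, n = 3 each), also with overlap (log2 fold change -0.18, SE 0.11). In GENCODE 29, REL shares 5702 of its 13170 exonic bases with a noncoding gene on the same strand, which had 0 counts. Whether REL was undercounted for this reason was not tested.

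**Figure D2:**
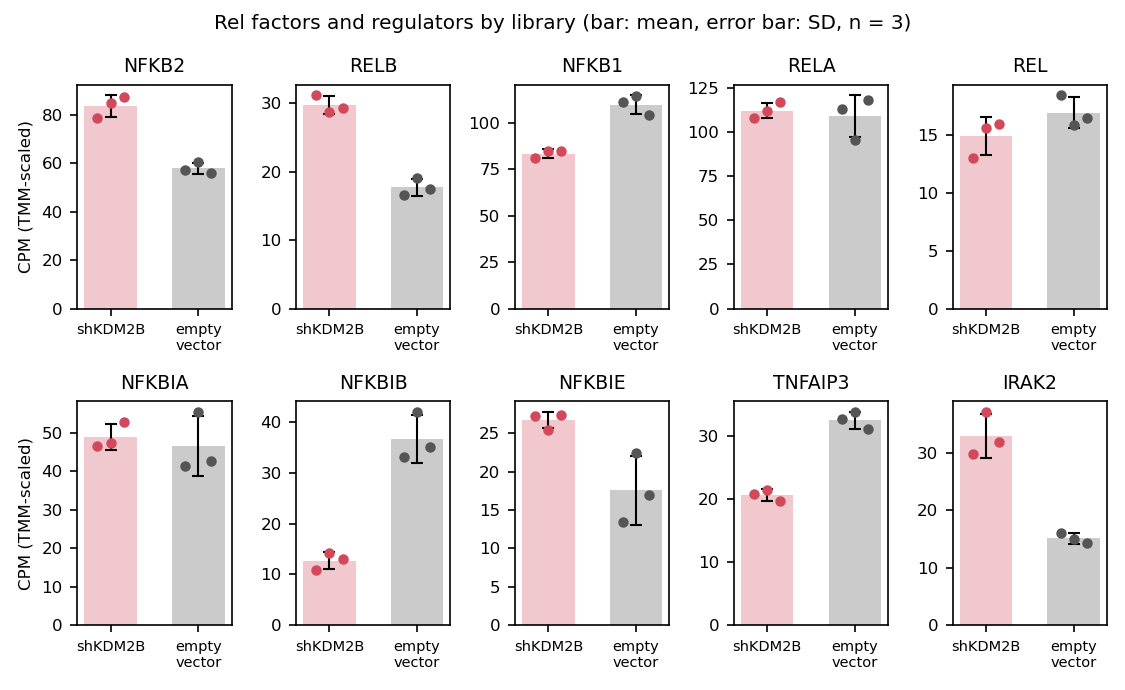
Levels of the 5 Rel factors, 4 inhibitors and IRAK2 in each library (y axis, TMM-scaled CPM; points are libraries, bars means, error bars SD). NFKB2, RELB, NFKBIE and IRAK2 were higher in all 3 shKDM2B libraries, NFKB1, NFKBIB and TNFAIP3 were lower in all 3, and RELA, REL and NFKBIA overlapped.

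Genes that restrain the pathway split evenly, 3 of the 7 being higher and 3 lower, while 1 did not pass. The 3 IkappaB genes each went their own way. NFKBIB, which encodes IkappaB-beta, fell 2.87-fold, to 10.9, 14.2 and 13.1 CPM in shKDM2B libraries, against 33.1, 42.1 and 35.05 CPM in empty vector libraries. This was the largest decrease among the pathway factors and regulators (log2 fold change -1.52, SE 0.11, adjusted p 4.85e-08). NFKBIB (chromosome 19 from 38899700 to 38908893, plus strand) shares 40 of its 2324 exonic bases with SIRT2 on the opposite strand, and the sources used here do not say whether counting used strand. NFKBIE, encoding IkappaB-epsilon, had 27.3, 25.5 and 27.4 CPM in shKDM2B libraries and 13.4, 22.4 and 16.9 CPM in empty vector libraries (log2 fold change 0.61, SE 0.14, adjusted p 0.00196). NFKBIA, the rapid feedback inhibitor IkappaB-alpha, averaged 48.9 ± 3.41 CPM in shKDM2B and 46.5 ± 7.77 CPM in empty vector cells (SD, n = 3 each). It did not pass (log2 fold change 0.08, adjusted p 0.510), but without empty vector replicate 2, its highest library, the value was 0.22 with an adjusted p of 0.00571, and without empty vector replicate 1 it was -0.0009.

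TNFAIP3, the ubiquitin-editing enzyme A20 that shuts off canonical signalling, fell to 20.8, 21.5 and 19.7 CPM in shKDM2B libraries, against 32.8, 33.8 and 31.1 CPM in empty vector libraries. The decrease was 1.58-fold with groups apart (adjusted p 6.39e-06). Its binding partner TNIP1 also fell (log2 fold change -0.23, SE 0.07, adjusted p 0.00820). ZC3H12A, the endonuclease Regnase-1 that cleaves cytokine mRNAs, averaged 17.8 ± 2.52 CPM in shKDM2B and 12.2 ± 1.42 CPM in empty vector cells (SD, n = 3 each; log2 fold change 0.56, adjusted p 0.00138). IER3, a stress-induced early response gene, averaged 151.6 ± 6.21 CPM in shKDM2B and 114.6 ± 6.01 CPM in empty vector cells (SD, n = 3 each; log2 fold change 0.40, adjusted p 2.36e-05).

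All 3 adaptor genes were called, 2 higher and 1 lower, against 30.5% higher and 30.4% lower over all tested genes. IRAK2, a signalling partner of the interleukin-1 and Toll-like receptors, rose 2.19-fold, with 29.8, 37.1 and 31.8 CPM in shKDM2B libraries, against 16.05, 15.05 and 14.2 CPM in empty vector libraries (log2 fold change 1.13, SE 0.10, adjusted p 2.59e-07). BIRC3, the ubiquitin ligase cIAP2, averaged 94.5 ± 4.30 CPM in shKDM2B and 70.9 ± 3.90 CPM in empty vector cells (SD, n = 3 each; log2 fold change 0.42). TRAF1, an adaptor of TNF receptors, fell to 3.99, 4.73 and 4.95 CPM in shKDM2B libraries, against 8.07, 9.91 and 8.18 CPM in empty vector libraries (log2 fold change -0.92, SE 0.15, adjusted p 1.11e-04). Among the effector targets, the adhesion molecule ICAM1 rose by 0.44 and TNFAIP2 by 0.25 on the log2 scale (adjusted p 3.15e-04 and 0.00228). PTGS2, the inducible cyclooxygenase, averaged 31.0 ± 1.63 CPM in shKDM2B and 34.4 ± 3.21 CPM in empty vector cells (SD, n = 3 each) and did not pass (log2 fold change -0.16), although without empty vector replicate 2 it was -0.23 with an adjusted p of 0.0116.

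Of 6 chemokines that attract neutrophils, CXCL1, CXCL2 and CXCL3 were lower without overlap of the groups, CXCL8 was called lower with overlap, and CXCL5 and CXCL6 were not tested. CXCL8, CXCL1, CXCL2, CXCL3, CXCL5 and CXCL6, ligands of CXCR1 and CXCR2, lie together on chromosome 4 between 73740506 and 74099293. Among the 9 member chemokines none was called higher, 4 of the 5 tested were called lower, and the median log2 fold change of the 5 was -0.49. Over all tested genes, 30.4% were called lower, and 65.5% had groups that did not overlap. CXCL1 had 4.38, 4.64 and 3.97 CPM in shKDM2B libraries, against 7.29, 8.0 and 6.23 CPM in empty vector libraries. CXCL2 had 5.35, 5.87 and 4.95 CPM in shKDM2B libraries, against 6.52, 8.67 and 7.46 CPM in empty vector libraries. CXCL3 had 1.36, 2.28 and 1.69 CPM in shKDM2B libraries, against 3.89, 2.76 and 3.26 CPM in empty vector libraries. In each of these 3 genes every shKDM2B library lay below every empty vector library. The log2 fold change was -0.73 for CXCL1 (SE 0.16, adjusted p 0.00111), -0.49 for CXCL2 (SE 0.15, adjusted p 0.0118) and -0.89 for CXCL3 (SE 0.24, adjusted p 0.00555). The CXCL2 decrease did not pass without shKDM2B replicate 3 (adjusted p 0.0627) or in DESeq2 (adjusted p 0.0763).

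The coding sequences of CXCL1, CXCL2 and CXCL3, 324 bases each, were 90.7 to 94.4% identical, so reads may have been split among them or dropped. Summed, these genes made 10.6 to 12.8 CPM in shKDM2B and 16.9 to 19.4 CPM in empty vector libraries, and the sums did not overlap. CXCL8, the chemokine with the most counts, had 41.1, 47.1 and 45.7 CPM in shKDM2B libraries, against 53.9, 45.9 and 56.2 CPM in empty vector libraries. Its groups overlapped, and the call was marginal (log2 fold change -0.22, SE 0.08, adjusted p 0.0309). It was lost without shKDM2B replicate 1 or 3 (adjusted p 0.147 or 0.0684), without empty vector replicate 1 or 3 (0.0745 or 0.138) and in DESeq2 (0.0653). CCL20, which attracts CCR6-bearing lymphocytes, had 9 to 26 counts in shKDM2B and 7 to 18 in empty vector libraries and did not pass (log2 fold change 0.22, SE 0.36, with a sign that turned without shKDM2B replicate 3 or empty vector replicate 1).

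The remaining chemokines were near the limit of detection. CCL2, which attracts monocytes, had 6 to 9 counts in shKDM2B and 1 to 10 in empty vector libraries. CCL5, which attracts T cells, had 0, 2 and 2 counts in shKDM2B libraries and 4, 4 and 5 in empty vector libraries. CXCL5 had 0 counts in shKDM2B libraries and a single count in 1 empty vector library, and CXCL6 had 0 in all 6. A count of 0 allows up to 3 counts, which is 0.191 to 0.294 CPM before TMM scaling and covers counting error only.

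Secreted cytokines went both ways. Of the 8 tested, 3 were higher, 3 were lower and 2 did not pass. CSF1, the growth factor of macrophages, had the largest rise of all members. It had 124.9, 119.0 and 125.5 CPM in shKDM2B libraries, against 34.0, 34.4 and 31.3 CPM in empty vector libraries, with the groups far apart (log2 fold change 1.89, SE 0.06, adjusted p 8.88e-12). IL11, a gp130 cytokine linked to bone metastasis of breast cancer, had 147.5, 133.1 and 148.8 CPM in shKDM2B libraries, against 70.2, 82.6 and 72.7 CPM in empty vector libraries. That was a 1.91-fold rise without overlap (log2 fold change 0.93, SE 0.07, adjusted p 3.60e-08). IL1B, an interleukin-1 cytokine, rose 1.89-fold (adjusted p 1.26e-07). It had 45.2, 43.2 and 44.6 CPM in shKDM2B libraries, against 25.1, 23.5 and 21.9 CPM in empty vector libraries. Its neighbour on chromosome 2, IL1A, averaged 2.29 ± 0.349 CPM in shKDM2B and 2.31 ± 0.650 CPM in empty vector cells (SD, n = 3 each; log2 fold change -0.04, SE 0.25). The sign of the IL1A change turned without shKDM2B replicate 3 or empty vector replicate 2.

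IL6, the founding ligand of the gp130 family, moved against IL11. It fell to 24, 39 and 56 counts in shKDM2B libraries, against 95, 114 and 148 in empty vector libraries, which was 2.33, 3.42 and 3.65 CPM against 9.24, 10.9 and 10.7 CPM. The highest shKDM2B library lay well below the lowest empty vector library (log2 fold change -1.69, SE 0.17, adjusted p 8.28e-07). IL6 shares 428 of its 2069 exonic bases with IL6-AS1 and 46 with STEAP1B, both on the opposite strand. These had 37 and 22 counts over all 6 libraries, against 476 for IL6. Whether reads in the shared bases were lost or credited elsewhere was not tested. CSF3, the granulocyte growth factor, fell to 9.04, 9.28 and 9.12 CPM in shKDM2B libraries, against 12.6, 11.6 and 12.8 CPM in empty vector libraries (log2 fold change -0.44, SE 0.11, adjusted p 0.00304).

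LIF, another gp130 ligand, had 24.2, 26.8 and 21.7 CPM in shKDM2B libraries, against 27.4, 27.4 and 31.5 CPM in empty vector libraries. Its small decrease (log2 fold change -0.26, SE 0.10, adjusted p 0.0298) was lost without shKDM2B replicate 1 or 3 (adjusted p 0.0730 or 0.170), without empty vector replicate 3 (0.140) and in DESeq2 (0.0875). IL32 averaged 3.90 ± 0.460 CPM in shKDM2B and 2.76 ± 0.674 CPM in empty vector cells (SD, n = 3 each) and did not pass (log2 fold change 0.48, adjusted p 0.0601), although without empty vector replicate 2 it was 0.67 with an adjusted p of 0.0143. TNF, the classical inducer of the pathway, had 0 counts in all shKDM2B libraries and 4 counts in 1 empty vector library. CSF2 had 9 to 14 counts in shKDM2B and 7 to 10 in empty vector libraries and was not tested.

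The receptors were the role in which every member rose. All 5 were called higher, none of their groups overlapped, 3 rose at least 2-fold, and their median log2 fold change was 1.14. Over all tested genes, 30.5% were called higher, 7.14% were higher by at least 2-fold, and 65.5% had groups that did not overlap. IL6R, the ligand-binding chain of the interleukin-6 receptor, had 42.7, 45.0 and 46.0 CPM in shKDM2B libraries, against 11.2, 13.8 and 12.7 CPM in empty vector libraries, a 3.54-fold rise (log2 fold change 1.82, SE 0.09, adjusted p 6.54e-10). IL6ST, the shared signalling chain gp130, had 1107, 1085 and 1143 CPM in shKDM2B libraries, against 524.4, 441.8 and 541.6 CPM in empty vector libraries (log2 fold change 1.14, SE 0.06, adjusted p 1.08e-08). LIFR, which joins gp130 to bind LIF, had 92.9, 89.7 and 88.8 CPM in shKDM2B libraries, against 54.6, 46.6 and 53.9 CPM in empty vector libraries (log2 fold change 0.80, SE 0.06, adjusted p 9.12e-08). These 3 receptor chains rose in the same libraries in which IL6 fell, whereas OSMR, the oncostatin M receptor of the same family and not a member, fell (log2 fold change -0.83, adjusted p 8.13e-08).

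IL7R, the interleukin-7 receptor alpha chain, had 36.6, 37.4 and 34.4 CPM in shKDM2B libraries, against 13.0, 14.4 and 15.1 CPM in empty vector libraries (log2 fold change 1.34, SE 0.09, adjusted p 1.06e-08). IL1RAP, the accessory chain of the interleukin-1 receptor, had 58.3, 63.7 and 60.2 CPM in shKDM2B libraries, against 38.9, 37.3 and 41.2 CPM in empty vector libraries (log2 fold change 0.63, SE 0.07, adjusted p 1.39e-06). IL2RG, the partner chain of IL7R, had at most 1 count in any library.

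**Figure D3:**
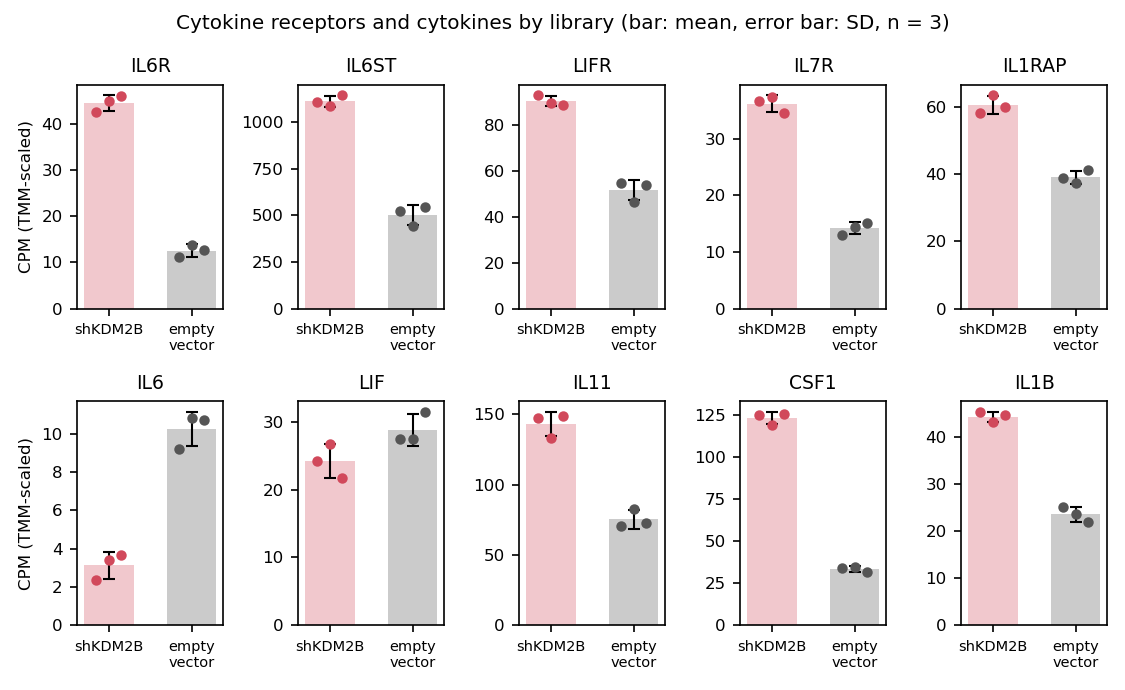
Levels of the 5 receptors (top row) and 5 cytokines (bottom row) in each library (y axis, TMM-scaled CPM; points are libraries, bars means, error bars SD). IL6R, IL6ST, LIFR, IL7R, IL1RAP, IL11, CSF1 and IL1B were higher in every shKDM2B library, and IL6 and LIF were lower.

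Set side by side, pathway factors, feedback genes and adaptors had 7 of 15 members higher and 5 lower (46.7% and 33.3%, median log2 fold change 0.08). Secreted ligands and receptors had 8 of 18 tested members higher and 7 lower (44.4% and 38.9%, median 0.35). Within that side, 3 of the 13 tested ligands were higher and 7 lower (median -0.22), and all 5 receptors were higher. Shares were thus similar on both sides, and over all tested genes 30.5% were higher and 30.4% lower. Both sides spanned wide ranges, from -1.52 to 1.13 for pathway genes and from -1.69 to 1.89 for ligands and receptors. Without shKDM2B replicate 3, and in DESeq2, the count of lower ligands and receptors was 4.

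Scaled to exon length (CPM per kilobase of merged exons), levels can be compared between genes. IL6ST and IER3 were the most abundant members, at 119.6 and 111.8 CPM per kilobase in shKDM2B cells and 54.1 and 84.5 CPM per kilobase in empty vector cells. Among ligands, IL11 came first with 53.6 CPM per kilobase in shKDM2B and 28.1 in empty vector cells. CSF1 stood at 22.7 CPM per kilobase in shKDM2B and 6.13 in empty vector cells, and CXCL8 at 19.6 in shKDM2B and 22.9 in empty vector cells. IL6 was far below them, at 1.51 CPM per kilobase in shKDM2B and 4.96 in empty vector cells.

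Cytokine mRNAs are known for AU-rich elements in the 3' UTR, which bring rapid decay. The nonamer TTATTTATT occurred in the annotated 3' UTR of 14 of the 42 members (33.3%), against 1004 of 11812 tested genes with an annotated 3' UTR (8.50%), in the longest coding transcript only (GENCODE 29). Such elements sat in genes of both directions. IL11, which rose, holds 6 matches, and CXCL2, which fell, holds 5. Overlapping matches were counted, and in both genes several lie in a run of repeats, so separate sites are fewer. Single matches are shown with the nonamer in capitals. Those of IL1B and CXCL2 lie in runs, where further matches reach into the small letters.
IL11 (position 318 of the 3' UTR): ggaacatataTTATTTATTtaagcaatta
IL1B (position 348 of the 3' UTR): gcttccctatTTATTTATTtatttgtttg
CXCL2 (position 148 of the 3' UTR): agtcttctatTTATTTATTtatttattta
CXCL8 (position 210 of the 3' UTR): atgtaaagtaTTATTTATTtgaatctaca

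Among members with the nonamer, 12 were tested, of which 4 were higher and 6 lower. Among those without it, 24 were tested, of which 13 were higher and 6 lower. Over all tested genes, 30.5% were higher and 30.4% lower. The hexamer CGACAC, a word looked for because of earlier results of these data, was in the 3' UTR of 2 of 42 members (4.76%), TRAF1 with 1 copy and LIF with 2, against 4.20% of tested genes with an annotated 3' UTR. IL6 and NFKBIB, the members with the largest decreases, hold 0.

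KDM2B binds unmethylated CpG, so CpG counts of the promoter windows are given as a description. Pathway genes had a median of 28.5 CpG and ligands and receptors a median of 8, against 26 over the windows of tested genes and 14 over all windows. The low value came from the ligands, with medians of 9 for chemokines and 7 for cytokines, while the receptors had a median of 27. Among the receptors, all of which rose, the counts ran from 0 in IL7R and 2 in LIFR to 36 in IL6ST and IL1RAP. The windows of IL7R, LIFR, CCL20, TNIP1, IL6, RELA and ICAM1 do not hold the gene start of GENCODE 29. Genes with many CpG therefore stood among both the higher members (ZC3H12A, 46) and the lower ones (NFKB1 and TNFAIP3, 35 each).

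**Figure D4:**
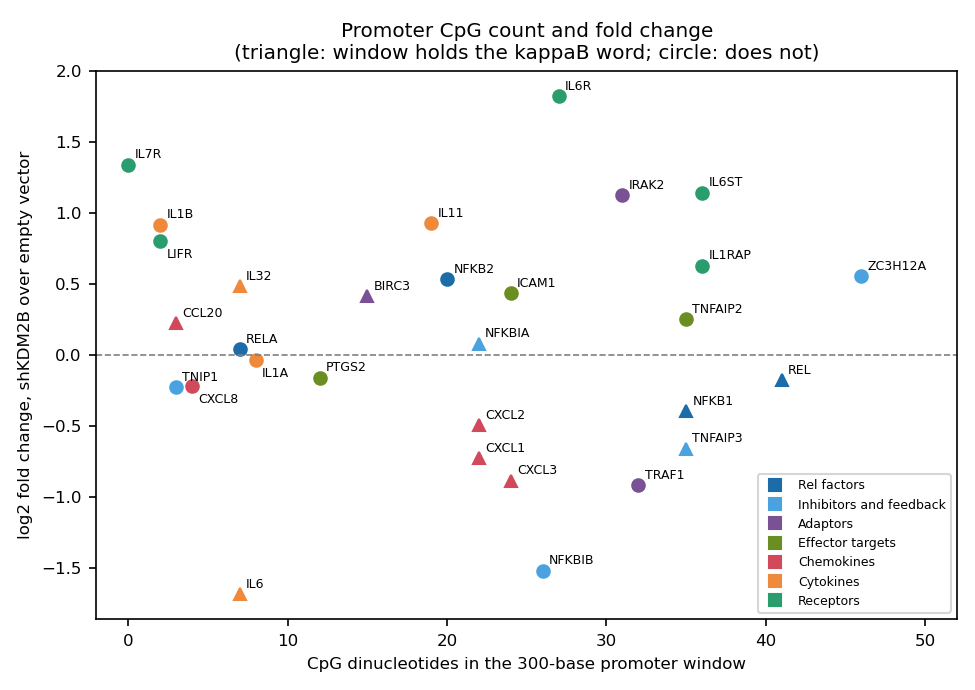
CpG count of the 300-base promoter window (x axis) against log2 fold change, shKDM2B over empty vector (y axis), for tested members with a window. Triangles mark windows with the strict kappaB word. The triangle of IL6 is lowest at -1.69, and IL7R, with 0 CpG, stands at 1.34.

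Genes around the members were read from lists written with earlier results known. Their calls stand beside 30.5% higher and 30.4% lower over all tested genes. Of 25 tested genes of signalling upstream of NF-kappaB, 9 were higher and 12 lower (median log2 fold change -0.07). MAP3K14, which encodes the noncanonical kinase NIK, averaged 75.5 ± 1.73 CPM in shKDM2B and 26.5 ± 0.978 CPM in empty vector cells (SD, n = 3 each; log2 fold change 1.51, adjusted p 1.36e-10). Other genes of that arm, chosen after their values were seen, went both ways. CHUK (log2 fold change -0.40), TRAF3 (-0.37) and TRAF2 (-0.31) were lower, and BIRC2 (0.70) was higher. The activity of the arm was not tested. A pair of receptors that signal through it were lower, while CD40, another one, had 0 counts in all libraries. LTBR, the lymphotoxin-beta receptor, fell to 26.8 ± 0.961 CPM in shKDM2B cells, against 78.8 ± 3.36 CPM in empty vector cells (log2 fold change -1.56, adjusted p 1.33e-10), and TNFRSF12A, the TWEAK receptor, was lower too (log2 fold change -1.15, adjusted p 3.95e-09). IKBKG, the regulatory subunit of the IkappaB kinase, rose by 0.92 on the log2 scale (adjusted p 4.36e-06), and it has a near-identical pseudogene, so its count is uncertain.

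Of 14 further inhibitors, 3 were higher and 4 lower (median -0.12), with TNIP2 at -0.68, PDLIM2 at -0.64, the deubiquitinase CYLD at -0.34 and the ligase ITCH at 0.54 on the log2 scale, all past the threshold. In the gp130 and JAK-STAT3 list, 8 of 15 tested genes were higher and 3 lower (median 0.42). The kinase PIM1, a STAT target, rose by 1.31, the receptor IL27RA by 0.99 and JAK1 by 0.95, while the oncostatin M receptor OSMR fell by 0.83 on the log2 scale. JAK1 averaged 352.0 ± 7.23 CPM in shKDM2B and 182.8 ± 5.85 CPM in empty vector cells (SD, n = 3 each). Chosen after their values were seen, and with few counts, BCL3 (log2 fold change 1.02) and CISH (2.23), a feedback inhibitor of JAK-STAT signalling, were higher and TNIP3 (-1.32) was lower. IL11RA, the receptor for IL11, averaged 0.458 CPM in shKDM2B and 0.210 CPM in empty vector cells and was not tested.

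Other genes listed as receptors and antagonists around the member ligands were mostly not detected or near the limit of detection. Of 17 listed, 4 were tested, and CXCR1, CXCR2, ACKR1, CCR6, CSF2RA and CSF3R had 0 counts in all 6 libraries. IL1R1, a receptor for IL1A and IL1B, did not pass (log2 fold change -0.24, SE 0.13, adjusted p 0.108). IL18R1 and IL1RL1 bind ligands that are not members, and IL18R1 did not pass (log2 fold change -0.28, adjusted p 0.340). CSF1R, the receptor for CSF1, had 34, 31 and 53 counts in shKDM2B libraries and 8, 15 and 15 in empty vector libraries (log2 fold change 1.52, SE 0.26, adjusted p 1.64e-04), and IL1RL1 was lower (log2 fold change -1.13). CSF1R, IL1RL1, IL18R1 and IL1R1 were chosen after their values were seen. Of 12 cytokine mRNA decay factors, 6 were higher and 1 lower (median 0.19), with ZFP36L2 at 0.58, RC3H1 at 0.54, RC3H2 at 0.39 and HNRNPD at -0.63 on the log2 scale. Of 9 tested further chemokines and cytokines, 3 were higher and 3 lower (median -0.09), including IL24 at 0.70 and IL18 at -0.41. The chemokine CXCL16 had 20, 28 and 27 counts in shKDM2B libraries and 7, 2 and 9 in empty vector libraries, and was higher (log2 fold change 1.95, adjusted p 3.97e-04). EBI3, a subunit of interleukin-27 and interleukin-35, rose to 7.997 ± 0.372 CPM in shKDM2B cells, against 1.69 ± 0.140 CPM in empty vector cells (SD, n = 3 each; log2 fold change 2.24, adjusted p 6.10e-08). CXCL11 was lower (log2 fold change -2.998, adjusted p 1.47e-06), with 7, 10 and 4 counts in shKDM2B libraries and 55, 41 and 64 in empty vector libraries. CXCL10, with 9 to 15 counts in shKDM2B and 19 to 36 in empty vector libraries, was lower too (log2 fold change -1.20). CXCL16, EBI3, CXCL11 and CXCL10 were also chosen after their values were seen.

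**Figure D5:**
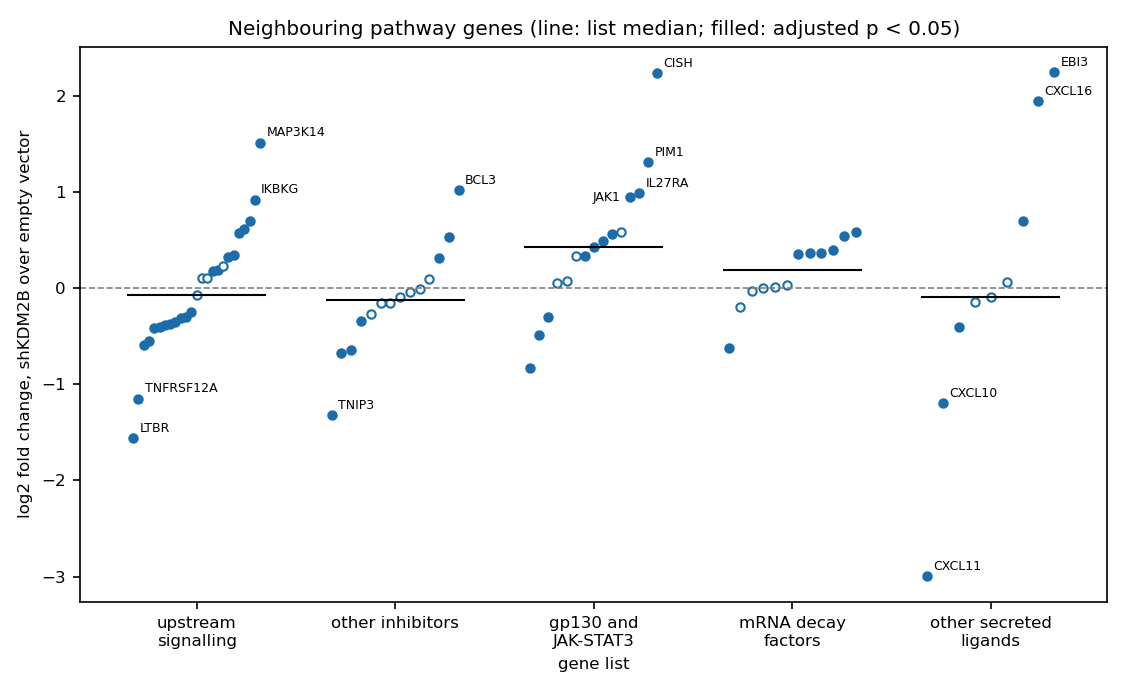
Log2 fold change, shKDM2B over empty vector (y axis), of tested genes in 5 neighbouring lists (x axis). Points are genes, filled where the adjusted p was under 0.05, and lines are list medians. The medians run from -0.12 to 0.42, with MAP3K14 at 1.51 and LTBR at -1.56 at the ends of the upstream list.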

How the data were processed

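The deposited table holds raw counts of reads for each gene in each library. The submitters' processing notes list limma, edgeR, DESeq2, featureCounts, STAR and Trim Galore, with the build GRCh38 (hg38). Versions, roles, gene annotation, strandedness and the handling of multi-mapped reads were not stated in those notes. Per the labels, libraries were made from total RNA after ribosomal depletion. Knockdown columns carry sh, a code and a number, and were taken as shKDM2B, the only hairpin group. Identifiers were matched to symbols (61415 of 61533), and 0 value columns were left unused.

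All genes were fitted together. Genes passing filterByExpr (minimum count 10, minimum total 15) were scaled by TMM and compared with edgeR 4.0.16's quasi-likelihood test (R 4.3.3, robust, two-sided), with adjustment over 14071 genes. The SE was derived from the F statistic and the log2 fold change. The labels call replicates biological but do not say whether cultures were separate, so p-values measure only how these libraries vary, and that variation may be technical. Every pair of libraries in a group differed beyond sampling noise. On simulated counts the fit kept false calls near the nominal rate where dispersions followed the trend. False calls exceeded that rate where dispersions were gene-specific, so adjusted p-values near the threshold can be too small.

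The members and lists were chosen with earlier results of these data known. All 42 members, KDM2B and, per list, up to 4 called genes of at least 5 mean CPM were named. Promoters came from RefSeq (GRCh38.p14), and exon lengths and 3' UTRs from GENCODE 29. Alternatives were other scalings, filters and tests (DESeq2 1.42.0, limma-voom from limma 3.58.1), no robust step, a replicate block and leaving out each library.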

Additional observations from a re-analysis of the deposited data

How the results depend on the processing

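Over 14 alternatives, the counts of members higher (17) and lower (12), and of pathway genes higher (7) and lower (5), stayed within 1.5 times their values. The count of ligands and receptors called lower (7) was 4 in DESeq2 and 4 to 7 with 1 library left out. With 1 library left out, members higher ran from 17 to 19, members lower from 9 to 13, pathway genes higher from 7 to 8 and lower from 5 to 5, ligands and receptors higher from 8 to 9, and the KDM2B log2 fold change from -2.19 to -2.08. Of 504 values for single members, 484 kept their direction and side of the threshold, 11 lost the call, 3 gained it and 6 turned sign. None of those that turned sign was called. They were CCL20 (-0.080 without shKDM2B replicate 3, -0.016 without empty vector replicate 1), IL1A (0.11 without shKDM2B replicate 3, 0.14 without empty vector replicate 2), NFKBIA (-0.0009 without empty vector replicate 1) and RELA (-0.052 without empty vector replicate 2). With 1 library left out, CCL20 ran from -0.080 to 0.47, IL1A from -0.22 to 0.14, NFKBIA from -0.0009 to 0.22 and RELA from -0.052 to 0.10. The cause was not tested.

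With the replicate number as a block, 17 members were higher and 12 lower, 7 and 5 of them pathway genes and 8 and 7 ligands and receptors, and the KDM2B value was -2.12. Libraries with the same number did not deviate together in every pair (correlations 0.118, -0.0258 and 0.0751), so the number was not taken as a pairing. Genes with few counts, such as CXCL3, CCL20 and IL1A, are limited by depth.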
